A study of Homo sapiens with 6 samples.

Results

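MYC, its partner MAX and 8 related proteins (MXD1, MXD3, MXD4, MXI1, MNT, MLX, MLXIP and MGA) were followed at the transcript level in Burkitt lymphoma cells depleted of LEF1. The members were all probe sets of the array that the platform's annotation assigns to 1 of these 10 genes alone. That gave 27 of 54675 probe sets. They cover 9 of the 10 genes (of 19775 genes with a probe set of their own), because every probe set that names MXD4 also names the microRNA gene MIR4800. The cells were BL2, an established human Burkitt lymphoma line, grown in complete RPMI medium and electroporated with siRNA. One group received a pool of 4 siRNAs against LEF1, a transcription factor of the Wnt pathway (LEF1 siRNA, n = 3 arrays). The other received a scrambled siRNA (n = 3 arrays). Both groups therefore share the line, the electroporation and the exposure to siRNA. The design text calls the 3 arrays of a group biological replicates. The labels name 3 batches, and in every batch 1 array came from LEF1 siRNA cells and 1 from scrambled siRNA cells. All arrays are of 1 cell line.

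MYC, MAX and their relatives are basic helix-loop-helix leucine zipper proteins that bind DNA as dimers. MYC with MAX binds the E-box, a short palindrome spelled CACGTG, and activates genes of growth and metabolism. The MXD proteins, MXI1 and MNT compete for MAX and recruit SIN3 and histone deacetylases, which silence the same kind of site. MLX is the partner of MLXIP, a sensor of glucose metabolites also called MondoA, and MGA joins MAX to a Polycomb complex known as PRC1.6. In Burkitt lymphoma a chromosome translocation places MYC under the control of an immunoglobulin enhancer, which keeps its expression high.

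RefSeq's promoter windows of build GRCh38.p14 were read for 9 of the 10 genes. They gave 14 windows because MAX, MXI1 and MGA have several annotated starts. No window of MYC was read, so the counts over these 14 windows leave MYC out. The 250 bases before the annotated start were searched on both strands for CACGTG, the network's own site, and for CTTTGA or CTTTGT, the core letters that LEF1 and its relatives bind. No match of one motif overlapped one of the other. CACGTG is present in 3 of the 14 windows, those of MXD4, MNT and MLX, against 6.32% of 34943 distinct windows of this length. CTTTGA or CTTTGT is present in 1 of the 14, that of MXD3, against 22.8% of all windows. A match describes letters only, and a window without one gives no information on the factor. Printed 5′ to 3′ on the gene's strand are the window of MXD1 and those of the 2 measured genes that hold the network's site, with CACGTG in capitals. MXD1 had the largest difference among the genes with a probe set of their own.
MXD1 (chr2:69914859-69915108, plus strand): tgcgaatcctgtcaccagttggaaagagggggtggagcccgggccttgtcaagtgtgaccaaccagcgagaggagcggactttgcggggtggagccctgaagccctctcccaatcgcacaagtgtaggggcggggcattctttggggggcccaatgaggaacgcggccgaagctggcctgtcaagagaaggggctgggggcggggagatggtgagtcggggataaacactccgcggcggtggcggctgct
MNT (chr17:2401061-2401310, minus strand): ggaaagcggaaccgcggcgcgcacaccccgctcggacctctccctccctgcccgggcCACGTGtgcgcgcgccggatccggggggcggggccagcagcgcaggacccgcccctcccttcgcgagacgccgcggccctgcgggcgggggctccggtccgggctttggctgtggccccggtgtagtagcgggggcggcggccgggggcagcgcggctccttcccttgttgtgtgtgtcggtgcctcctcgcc
MLX (chr17:42566850-42567099, plus strand): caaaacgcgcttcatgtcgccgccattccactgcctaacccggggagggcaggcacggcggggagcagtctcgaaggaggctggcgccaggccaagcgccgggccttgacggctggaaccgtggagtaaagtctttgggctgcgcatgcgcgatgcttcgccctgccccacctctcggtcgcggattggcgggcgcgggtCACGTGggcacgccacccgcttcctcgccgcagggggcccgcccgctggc
In MNT the CACGTG begins 193 bases before the start, and in MLX it begins 50 bases before it. The MXD1 window holds neither motif.

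LEF1 itself served as the check of the labels. At probe set 221558_s_at the log2 levels were 8.21, 8.09 and 8.67 with LEF1 siRNA (batches 1, 2 and 3, the order kept throughout), against 11.09, 10.58 and 11.45 with scrambled siRNA. The mean difference, LEF1 siRNA minus scrambled siRNA, was -2.71 on the log2 scale, which leaves 15.2% of the level with scrambled siRNA. The groups did not overlap at any of the 3 LEF1 probe sets. The other two fell by 1.84 (210948_s_at) and by 0.29 (221557_s_at). All 3 passed limma's test with batch as a block, and 221558_s_at and 210948_s_at passed without it (adjusted p 0.0213 and 0.00418). Array medians ran from 6.89 to 6.96. Of 54613 probe sets tested, limma without a block called 10 at an adjusted p under 0.05 (0.0183%) and limma with batch as a block called 3328 (6.09%). Of those 3328, 2501 were higher with LEF1 siRNA (4.58% of those tested) and 827 were lower (1.51%). Scaled to the 24 poly-A spike-in probe sets instead, the median difference of all probe sets moved by -0.12 on the log2 scale and the share of higher calls was 11.04%, against 75.2% in the deposited values. Under quantile normalization that share was 56.2%. Differences below are therefore relative to the deposited scaling. In bulk RNA, fewer cells with a transcript and less transcript per cell cannot be told apart. Nothing in the labels says whether the 3 arrays of a group came from separate electroporations, so the p-values cover only the spread between these arrays.

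Across the 27 probe sets the network's transcripts moved little. The differences ran from -0.16 to 0.31 with a median of 0.01, the same to 2 decimals as the median of all probe sets tested (0.01). Within 0.2 of 0 lay 25 of the 27. Without a block none passed limma's adjusted p of 0.05, the smallest being 0.202. Unadjusted, 3 of the 27 had a p under 0.05 in that fit, as had 4280 of the 54613 probe sets tested. With batch as a block 2 of the 27 rose, both of them MXD1, and none fell, against 6.09% called among all probe sets tested. The groups did not overlap at 4 of the 27, 2 higher and 2 lower with LEF1 siRNA, against 12.5% of all probe sets tested. A probe set kept 1 direction in all 3 batches in 12 cases, 7 higher and 5 lower, against 36.5% of all probe sets tested. Levels lay above the median of all probe sets (6.91) at 24 of the 27. The 95% intervals of the differences, with batch as a block, reached between 0.120 and 0.171 to either side of the mean.

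**Figure D1:**
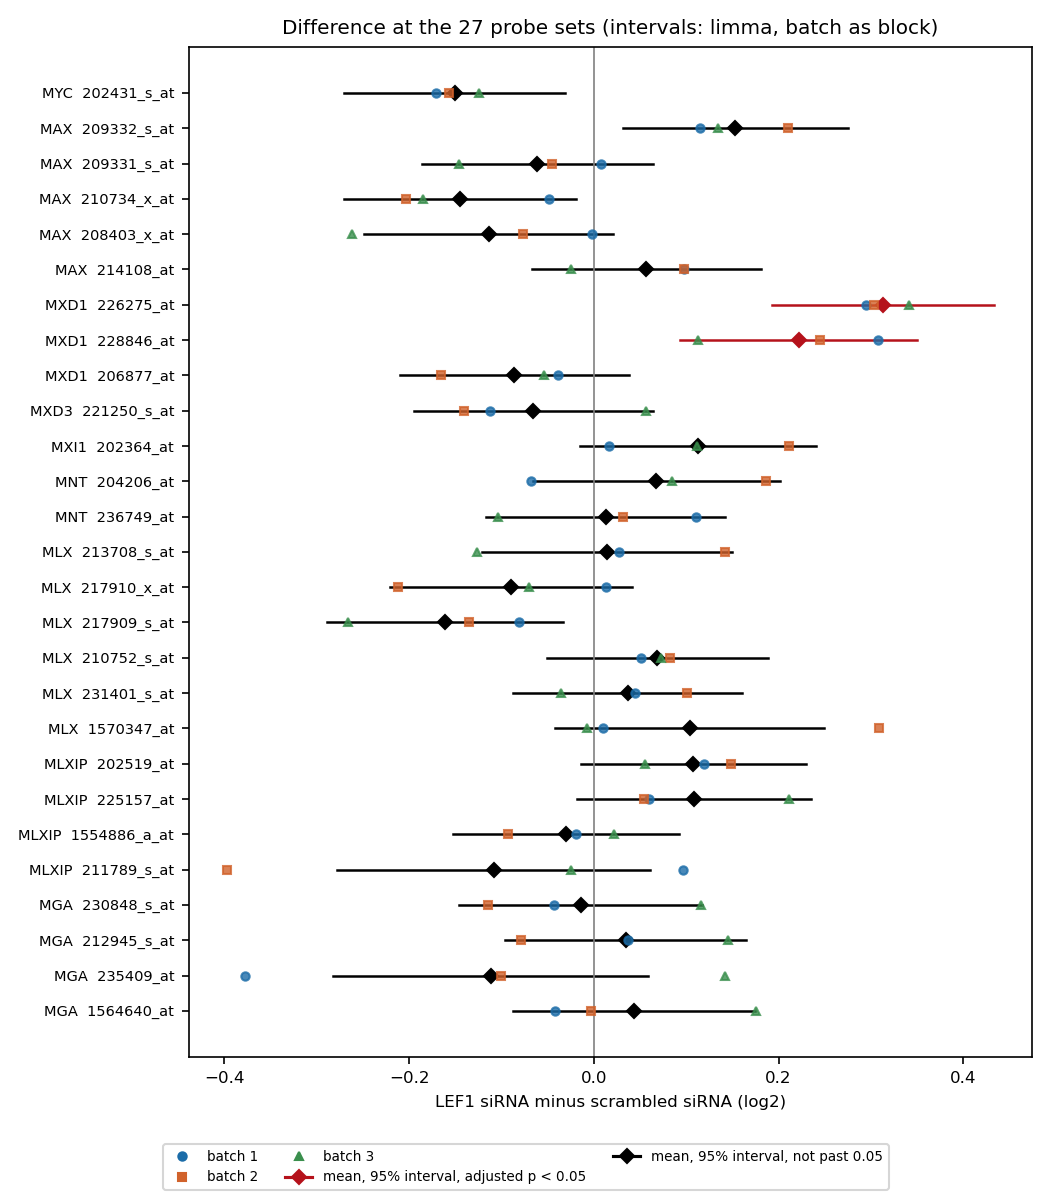
Difference between LEF1 siRNA and scrambled siRNA (log2, horizontal axis) at each of the 27 probe sets (vertical axis), with 1 point per batch, the mean as a diamond and its 95% interval from limma with batch as a block. The 2 intervals drawn in red belong to MXD1, with means of 0.31 and 0.22, and 25 of the 27 means lie within 0.2 of 0.

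MYC, on chromosome 8, was read by 1 probe set, 202431_s_at, one of the brightest on the array. Its mean over the 6 arrays exceeded that of 99.3% of the probe sets, although brightness also depends on the probes and sets no order of abundance. Its log2 levels were 12.87, 12.73 and 13.02 with LEF1 siRNA, against 13.05, 12.88 and 13.15 with scrambled siRNA. In each batch the LEF1 siRNA array was the lower one, by -0.17, -0.16 and -0.12, but the groups overlapped because batches differed by more than the siRNAs did. The means were 12.87 ± 0.15 with LEF1 siRNA and 13.02 ± 0.13 with scrambled siRNA (SD, n = 3 each). That is a difference of -0.15, or 90.1% of the level with scrambled siRNA. It did not pass the test: limma's adjusted p was 0.820 without a block and 0.155 with batch as a block. An exact permutation of the 6 arrays gave p = 0.2 where 0.1 is the smallest possible (two-sided). Exact sign changes of the 3 batch differences gave 0.25, the smallest they can give. The 95% interval of the difference, with batch as a block, ran from -0.27 to -0.03. Scaled to the poly-A spike-ins the difference was -0.27 (limma with batch as a block, adjusted p = 0.00805), which holds the shift of -0.12 common to all probe sets.

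**Figure D2:**
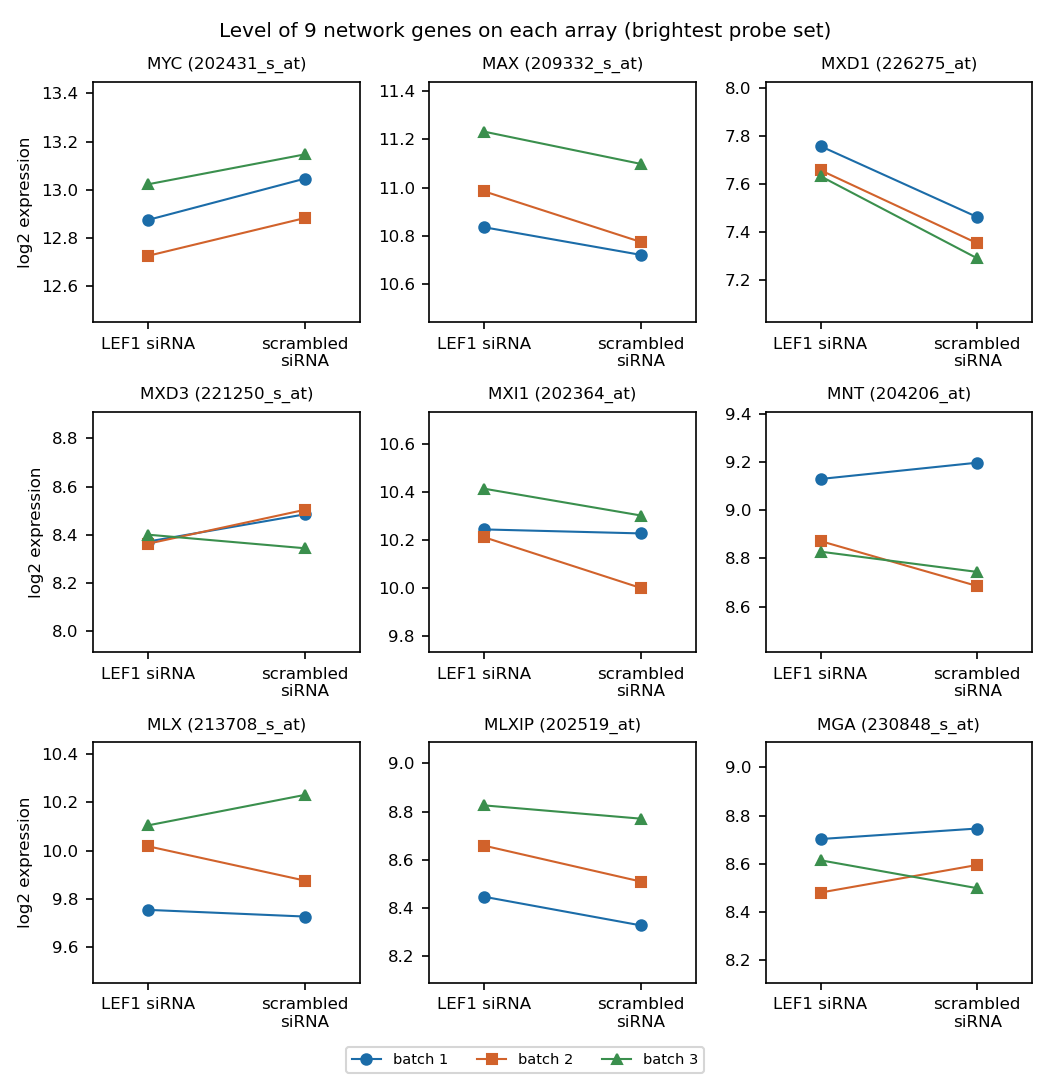
Log2 level of 9 network genes at their brightest probe set, with LEF1 siRNA left and scrambled siRNA right in each panel, 1 point per array and lines joining the arrays of a batch. MXD1 is the panel in which all 3 LEF1 siRNA arrays (7.63 to 7.76) lie above all 3 scrambled siRNA arrays (7.29 to 7.46), while MYC sits near 13 with lines that all tilt the same way.

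MAX, the common partner at chr14:65006101-65102695, was read by 5 probe sets, which did not give a common direction. The brightest, 209332_s_at, had 10.84, 10.98 and 11.23 with LEF1 siRNA and 10.72, 10.77 and 11.10 with scrambled siRNA. It was higher in each batch, with a mean difference of 0.15 (95% interval 0.03 to 0.27, adjusted p 0.888 without and 0.155 with batch as a block in limma). Probe set 210734_x_at ran the other way. It had 9.25, 9.24 and 9.16 with LEF1 siRNA against 9.30, 9.45 and 9.35 with scrambled siRNA, groups that did not overlap. Its mean difference was -0.15 (95% interval -0.27 to -0.02, adjusted p 0.632 without and 0.202 with batch as a block). The third, 208403_x_at, had 8.17, 8.14 and 8.10 against 8.17, 8.22 and 8.36, also without overlap, and a mean difference of -0.11. Probe sets 209331_s_at and 214108_at differed by -0.06 and 0.06. By the maker's naming, an "x" marks probes that can also hybridise to other sequences, and the 5 sets share 1 target gene rather than being replicates. None passed the test in either fit on the deposited scale. Probe sets 210734_x_at (-0.27) and 208403_x_at (-0.23) were called lower under the poly-A scaling with batch as a block. Which transcripts each set reads was not tested.

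MXD1, at chr2:69915109-69942945, was the one gene with a probe set of its own that rose in the fit with batch as a block. The protein, also called MAD1, takes MAX from MYC and recruits the SIN3 corepressor, and it is known for accompanying exit from the cell cycle and differentiation in blood cells. At 226275_at the log2 levels were 7.76, 7.66 and 7.63 with LEF1 siRNA, against 7.46, 7.35 and 7.29 with scrambled siRNA. Every LEF1 siRNA array lay above every scrambled siRNA array, and the batch differences of 0.29, 0.30 and 0.34 were close to each other. The means were 7.68 ± 0.07 with LEF1 siRNA and 7.37 ± 0.09 with scrambled siRNA (SD, n = 3 each), a difference of 0.31 or 1.24-fold. With batch as a block limma gave a 95% interval of 0.19 to 0.43 and an adjusted p of 0.0042. Without a block the interval was 0.16 to 0.47 and the adjusted p 0.202, so the call rests on the block. An exact permutation of the arrays gave p = 0.1, the smallest that 3 against 3 allows (two-sided). Groups without overlap always give that value, so it only restates that they did not overlap. With batch as a block the call held under quantile normalization (0.27), equal medians (0.29) and the poly-A spike-ins (0.19), and without any 1 batch (0.30 to 0.32).

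A second MXD1 probe set, 228846_at, gave 7.10, 7.19 and 6.93 with LEF1 siRNA, against 6.79, 6.95 and 6.82 with scrambled siRNA. The LEF1 siRNA array was the higher one in each batch, by 0.31, 0.24 and 0.11, while the groups overlapped by the narrow margin of batch 3. The mean difference was 0.22, or 1.17-fold (limma with batch as a block, adjusted p = 0.042; without a block 0.517). That call was lost under quantile normalization (0.20, adjusted p = 0.0596), equal medians (0.20, 0.0804) and the poly-A spike-ins (0.10, 0.248) with batch as a block in limma. It was also lost without batch 1 (0.18, 0.198) and without batch 2 (0.21, 0.194). The third MXD1 probe set, 206877_at, stood at 6.36 ± 0.05 with LEF1 siRNA and 6.45 ± 0.04 with scrambled siRNA, below the median level of the array. Its difference of -0.09 did not pass the test (adjusted p 0.53 with batch as a block). Under the poly-A scaling it was called lower, at -0.21 (limma with batch as a block, adjusted p = 0.0346), opposite in direction to 226275_at.

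No other antagonist of MYC with a probe set of its own passed the test. Among the probe sets shared by MXD4 and MIR4800, described under the other observations, 212347_x_at (0.39) and 210778_s_at (0.23) were called higher with batch as a block. MXI1, also called MXD2, had 10.24, 10.21 and 10.41 with LEF1 siRNA at 202364_at, against 10.23, 10.00 and 10.30 with scrambled siRNA. Its batch differences of 0.02, 0.21 and 0.11 all pointed up, with a mean of 0.11 (95% interval -0.01 to 0.24, limma with batch as a block, adjusted p = 0.376). MXD3, which is known from cells in S phase, had 8.37, 8.36 and 8.40 with LEF1 siRNA at 221250_s_at, against 8.48, 8.50 and 8.34 with scrambled siRNA. Batches 1 and 2 were lower and batch 3 higher, for a mean of -0.07 (95% interval -0.20 to 0.06, adjusted p 0.686). MNT is the antagonist present in most cells, dividing or resting. At 204206_at it had 9.13, 8.87 and 8.83 with LEF1 siRNA, against 9.20, 8.69 and 8.74 with scrambled siRNA, so that the spread between batches exceeded the mean difference of 0.07. Its second probe set, 236749_at, differed by 0.01. None of these 4 probe sets of MXI1, MXD3 and MNT passed the test in either fit. With batch as a block their intervals allow changes of up to 0.24 upward (MXI1) or 0.20 downward (MXD3). Without a block the widest, at MNT 204206_at, ran from -0.26 to 0.39.

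**Figure D3:**
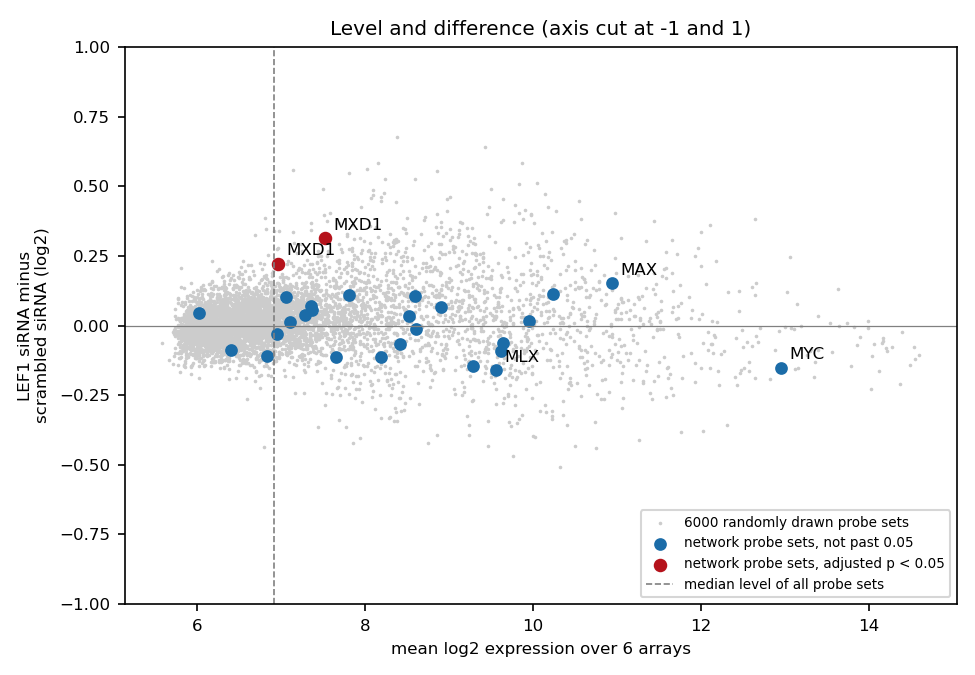
Mean log2 level over the 6 arrays (horizontal axis) against the difference between LEF1 siRNA and scrambled siRNA (log2, vertical axis, drawn from -1 to 1) for the 27 network probe sets and, in grey, 6000 probe sets drawn at random. The 2 red points are MXD1 at 0.31 and 0.22, at mean levels of 7.53 and 6.96, and MYC stands far right at -0.15.

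MLX, whose product pairs with MLXIP and with some MXD proteins, was read by 6 probe sets with differences of -0.16 to 0.10. The brightest, 213708_s_at, had 9.75, 10.02 and 10.10 with LEF1 siRNA, against 9.73, 9.88 and 10.23 with scrambled siRNA, and differed by 0.01. The lowest difference was at 217909_s_at, with 9.35, 9.50 and 9.60 against 9.43, 9.64 and 9.87. There the LEF1 siRNA array was lower in each batch, the groups overlapped, and the mean difference of -0.16 did not pass the test (95% interval -0.29 to -0.03, limma with batch as a block, adjusted p = 0.153). It was called lower with quantile normalization (-0.21, adjusted p = 0.0424) and under the poly-A scaling (-0.28, adjusted p = 0.00825), both with batch as a block in limma. At 210752_s_at the small difference of 0.07 was higher in all 3 batches, with 7.37, 7.38 and 7.43 against 7.32, 7.30 and 7.35, and the groups did not overlap. Probe set 217910_x_at differed by -0.09 (-0.21 and called under the poly-A scaling), 231401_s_at by 0.04 and 1570347_at by 0.10, of which the last came from batch 2 alone (0.31, against 0.01 and -0.01). The 6 sets of MLX thus split in direction, and none passed the test on the deposited scale.

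MLXIP, at chr12:122078756-122147344, was higher in each batch at its 2 brighter probe sets without passing the test. At 202519_at it had 8.45, 8.66 and 8.83 with LEF1 siRNA, against 8.33, 8.51 and 8.77 with scrambled siRNA, and at 225157_at 7.56, 7.97 and 8.07 against 7.503, 7.91 and 7.86. Both means were 0.11 (adjusted p 0.374 and 0.394 in limma with batch as a block), smaller than the spread between batches within either group. The 2 dimmer sets, 1554886_a_at and 211789_s_at, differed by -0.03 and -0.11. Under the poly-A scaling 211789_s_at was called lower (-0.23, adjusted p = 0.0417, limma with batch as a block). On the deposited scale its value came from the scrambled siRNA array of batch 2 at 7.23, where the other five arrays lay between 6.68 and 6.84.

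MGA, the largest protein of the network, was read by 4 probe sets, and every one of them had batches that pointed in opposite directions. The brightest, 230848_s_at, had 8.70, 8.48 and 8.61 with LEF1 siRNA, against 8.75, 8.60 and 8.50 with scrambled siRNA, a difference of -0.01. Probe set 212945_s_at differed by 0.03 and 1564640_at, at a level below the array's median, by 0.04. At 235409_at the batch differences were -0.38, -0.10 and 0.14 around a mean of -0.11. No MGA probe set passed the test (adjusted p 0.563 to 0.953 in limma with batch as a block). Only 235409_at was called in an alternative of that fit, lower without batch 3 (-0.24, adjusted p = 0.0405) and under the poly-A scaling (-0.23, adjusted p = 0.0438).

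The rest of the pathway was read through lists of partners, regulators and targets, each gene by its brightest probe set. Among all 19775 genes so read, 8.43% were called in limma with batch as a block, 6.73% higher and 1.7% lower, and the median difference was 0.02. Without a block no gene of these lists passed limma's adjusted p of 0.05, and 5 of all genes did (0.0253%). All calls named in the following paragraphs are from the fit with batch as a block, and none of the lists carries a test of its own. The paralogues MYCN and MYCL and the MLXIP relative MLXIPL, 3 genes, gave no call. MYCN differed by -0.07 and MLXIPL by -0.08 (adjusted p 0.603 and 0.556, limma with batch as a block). Both were called lower under the poly-A scaling, at -0.19 and -0.20.

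Of 14 measured regulators of MYC stability and transcription, 2 fell and none rose, with a median of -0.05. CIP2A, an inhibitor of the phosphatase that marks MYC for turnover, was at 7.78 ± 0.15 with LEF1 siRNA and 8.04 ± 0.18 with scrambled siRNA, a difference of -0.25 (limma, adjusted p = 0.0173). A second CIP2A probe set differed by 0.02 and was not called. AURKA, a mitotic kinase that shields MYC proteins from degradation, was at 10.80 ± 0.13 against 11.03 ± 0.10, a difference of -0.23 (limma, adjusted p = 0.0252). Its second bright probe set fell by 0.25, while 208080_at, below the array's median level, differed by 0.02 and was not called. Without batch 2 neither CIP2A (-0.25, adjusted p = 0.0975) nor AURKA (-0.21, adjusted p = 0.152) was called, nor was CIP2A without batch 3 (-0.22) or AURKA without batch 1 (-0.23). With trend and robust variances the AURKA call was lost as well (adjusted p = 0.0625, limma).

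Among 12 coactivators of MYC, 1 rose and 1 fell, around a median of -0.00053. ACTL6A, an actin-like subunit of chromatin remodellers and of the histone acetyltransferase complexes that MYC recruits, had 11.08, 10.80 and 10.75 with LEF1 siRNA, against 10.66, 10.32 and 10.09 with scrambled siRNA. The groups did not overlap, and the difference of 0.52 passed the test (limma, adjusted p = 0.00032). WDR5, a chromatin adaptor that binds MYC directly, was at 9.40 ± 0.18 against 9.69 ± 0.27 and fell by 0.28 (limma, adjusted p = 0.0158), a call lost without batch 2 (-0.22, adjusted p = 0.16). The second WDR5 probe set differed by -0.10 and was not called.

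The SIN3 and histone deacetylase complex is what MXD proteins and MNT recruit. Of 12 measured members, MIZ1 included, 2 rose and none fell, with a median of 0.04. ARID4B, a SIN3 subunit, had 9.68, 9.71 and 9.92 with LEF1 siRNA, against 9.21, 9.31 and 9.52 with scrambled siRNA, a difference of 0.42 (limma, adjusted p = 0.000694). SUDS3, another SIN3 subunit, was at 8.69 ± 0.04 against 8.43 ± 0.03 and rose by 0.25 (limma, adjusted p = 0.0164). The 3 other ARID4B probe sets differed by 0.06, -0.05 and 0.03 and the second SUDS3 probe set by -0.19, none of them called. The SUDS3 call was lost without batch 1 or batch 2 (0.24 each, adjusted p 0.0517 and 0.106) and under the poly-A scaling (0.13). Of 8 members of the MGA-containing PRC1.6 complex, TFDP1, the dimer partner of E2F factors, fell by 0.29 (12.35 ± 0.20 against 12.65 ± 0.19, limma, adjusted p = 0.0193). Of its other probe sets, one fell by 0.51 and one differed by -0.14 without a call. Without batch 2 the TFDP1 difference was -0.22 and not called. None of the 8 rose, and the median was -0.01.

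Of 25 measured transcripts known to be induced by MYC, 3 fell and none rose in this fit, and 21 of the 25 differences lay below 0, as did 40.8% of those of all genes. The median was -0.10, with batch medians of -0.02, -0.16 and -0.16, against a median of 0.02 over all genes. Under the poly-A scaling it was -0.22, with 15 called lower, against a median of -0.10 over all genes. That scaling called 7826 of the 54613 probe sets tested lower, against 827 in the deposited values. SLC7A5, a transporter of large neutral amino acids, had 11.07, 11.11 and 11.31 with LEF1 siRNA, against 11.28, 11.49 and 11.81 with scrambled siRNA, a difference of -0.36 (limma, adjusted p = 0.00413). TFRC, the transferrin receptor, was at 12.70 ± 0.19 against 13.01 ± 0.25 and fell by 0.32 (limma, adjusted p = 0.00569). Of its 4 other probe sets 1 fell, by 0.47, and 3 were not called (-0.09 to -0.03). SHMT2, the mitochondrial serine hydroxymethyltransferase, was at 11.20 ± 0.18 against 11.48 ± 0.17 and fell by 0.27 (limma, adjusted p = 0.0096), a call lost without batch 2 (-0.26, adjusted p = 0.0638). TFRC and SHMT2 were known to move in these data when the list was written. Without them 23 genes remain, with 1 lower call and a median of -0.09. The nucleolar genes NPM1 and NCL, picked for naming after their values were seen, differed by -0.23 and -0.15 and were not called. CCND2, a cyclin gene, was the one measured member of the list below the median level of the array.

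Of 15 transcripts known to be repressed by MYC, 6 rose and none fell, and 13 of the 15 differences lay above 0, as did 59.2% of those of all genes. The median was 0.07, with batch medians of 0.10, 0.20 and 0.08, against a median of 0.02 over all genes. Scaled to the poly-A spike-ins it was -0.05, against a median of -0.10 over all genes. There 3 of the list were called higher and none lower, and of the 54613 probe sets tested 971 were called higher. BTG1, an antiproliferative protein of resting lymphocytes, had 12.37, 12.04 and 11.68 with LEF1 siRNA, against 11.78, 11.37 and 11.20 with scrambled siRNA. Batches differed as much as the groups, yet each batch rose, by 0.59, 0.67 and 0.48, for a mean of 0.58 or 1.49-fold (limma, adjusted p = 0.000126). PTPN6, the phosphatase SHP-1 of B cell receptor signalling, was at 8.16 ± 0.26 against 7.74 ± 0.21 and rose by 0.42 (limma, adjusted p = 0.00112). GADD45A, a stress-induced growth arrest gene, rose by 0.28 (9.91 ± 0.27 against 9.63 ± 0.30, limma, adjusted p = 0.00922), a call lost without batch 2 (0.25) and under the poly-A scaling (0.16). ITGB1, the integrin beta 1 chain, rose by 0.38 at its brightest probe set (limma, adjusted p = 0.00127), while 6 other ITGB1 probe sets differed by -0.01 to 0.08 and were not called. The cell cycle inhibitors HBP1 and CDKN1B, named after their values were seen, rose by 0.28 and 0.26, and CDKN1A differed by 0.05 without a call. HBP1 probe sets 207361_at and 236645_at differed by 0.11 and -0.11, neither of them called, and at 236645_at the groups did not overlap. PTPN6 and ITGB1 were known to move when the list was written, and without them 4 of 13 rose, with a median of 0.06.

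Of 8 transcripts listed as induced by MLXIP with MLX, 4 rose and none fell, with a median of 0.21 and batch medians of 0.22, 0.16 and 0.14. Over all genes the median was 0.02. Whether each of the 8 is a target in BL2 cells was not tested. Under the poly-A scaling the list's median was 0.09, with 3 called higher and 1 lower, against a median of -0.10 over all genes. TXNIP, the thioredoxin-interacting protein that restrains glucose uptake and is the best known target of MLXIP, had 7.64, 9.40 and 8.67 with LEF1 siRNA, against 7.60, 8.61 and 8.10 with scrambled siRNA. Its batch differences were 0.04, 0.79 and 0.57, with a mean of 0.47 (limma, adjusted p = 0.0126), so batch 1 showed almost none of it. Its other two probe sets differed by 0.32 (adjusted p = 0.0932) and by 0.22 (adjusted p = 0.0495) in the same limma fit. KLF10, a zinc finger repressor, had 9.90, 9.42 and 9.95 with LEF1 siRNA, against 9.50, 8.995 and 9.52 with scrambled siRNA. The batch differences of 0.40, 0.42 and 0.42 were nearly equal, for a mean of 0.41 (limma, adjusted p = 0.000736). ARRDC3, an arrestin-like relative of TXNIP, was at 7.15 ± 0.50 against 6.81 ± 0.54 and rose by 0.34 (limma, adjusted p = 0.00879). PFKFB3, which makes the activator of phosphofructokinase, rose by 0.24 (8.44 ± 0.53 against 8.19 ± 0.43, limma, adjusted p = 0.0304). That call was lost under quantile normalization (0.19), equal medians (0.22) and the poly-A scaling (0.12), and without batch 1 (0.23) or batch 3 (0.19). Without batch 2 the calls of TXNIP (0.31, adjusted p = 0.135) and ARRDC3 (0.24, adjusted p = 0.105) were lost. The other four were HK2, the glycolytic hexokinase, at -0.13, and TOMM20, ARRDC2 and ARRDC4 at 0.08, 0.10 and 0.18, none of them called.

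**Figure D4:**
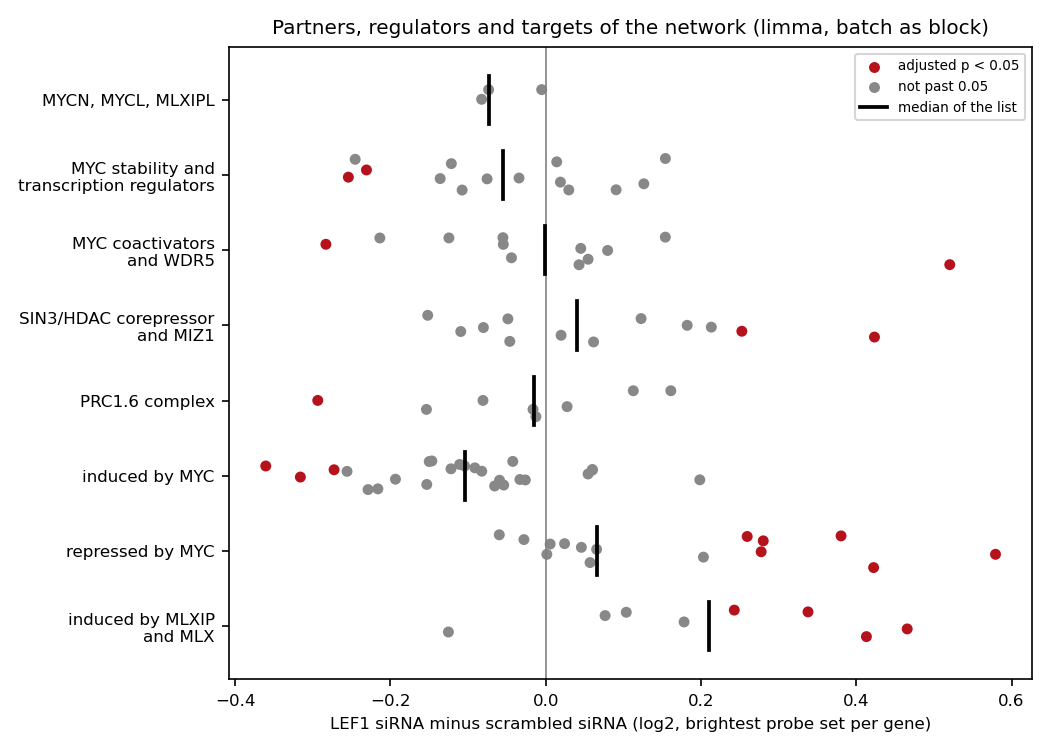
Difference between LEF1 siRNA and scrambled siRNA (log2, horizontal axis) for each gene of 8 lists of network partners, regulators and targets (vertical axis), each gene at its brightest probe set, red where limma with batch as a block gave an adjusted p under 0.05 and with a bar at the list's median. The medians are -0.10 for transcripts induced by MYC, 0.07 for those repressed by MYC and 0.21 for those listed as induced by MLXIP and MLX.

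Markers of B cells and of other cell types were read beside these lists. At their brightest probe sets, 12630 of all 19775 genes lay above the array's median level. Of 9 B lineage and Burkitt markers all did. Only MME, the surface peptidase CD10 of germinal centre B cells, was called, falling by 0.43 (limma, adjusted p = 0.000605). Of 15 markers of other cell types, 8 lay above that median level. PECAM1 rose by 0.32, NCAM1 fell by 0.25 and CD247 fell by 0.22 (limma, adjusted p 0.00584, 0.0188 and 0.0368), each at its brightest probe set. None of these 3 was called without batch 2. PECAM1 was also called higher at 208981_at (0.32) and 1559921_at (0.23), but not at 208983_s_at (0.21) or 1558397_at (0.03). NCAM1 was also called lower at 212843_at (-0.29), and its remaining probe sets differed by -0.10 to 0.06 without a call. A second CD247 probe set rose by 0.30 (limma, adjusted p = 0.011), so CD247 had calls in both directions. For the 15 markers, the log2 of the summed linear values ran from 11.03 to 11.09 with LEF1 siRNA and from 11.06 to 11.08 with scrambled siRNA. Their part in the differences above was not tested.

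The genes whose levels followed MYC most closely over the 6 arrays were sought among 12621 brightest probe sets above the median level. They were DUS3L (Pearson r 0.997), S1PR2 (0.995), NUP93 (0.994), NXPE3 (0.994) and GGCT (0.994), and 426 probe sets had an r over 0.9. These 6 arrays share 3 batches, and MYC spanned 12.73 to 13.02 over the LEF1 siRNA arrays and 12.88 to 13.15 over the scrambled siRNA arrays, wider than its difference of -0.15.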

How the data were processed

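RNA of 6 BL2 cultures was isolated with a Qiagen kit, labelled as biotinylated cRNA (a 3' kit, which reads mainly the 3' ends of transcripts) and hybridised to HG-U133 Plus 2.0 arrays, per the labels' protocols. The authors deposited 1 log2 value per probe set and array, and how these were normalized and summarised is not given in the sources used here. The log2 scale was read from the range of 5.45 to 15.0. Precision is limited by the number of arrays.

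The 62 control probe sets were left out, which left 54613. Of these, 41091 named 1 gene, 1801 several and 11721 none. The platform's annotation gave the symbols, and RefSeq's names changed 0 of them.

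All 54613 entered limma 3.58.1 (lmFit, eBayes; R 4.3.3), once without a block and once with the batch label as a block. P-values are two-sided and were adjusted over all of them by Benjamini-Hochberg, with a threshold of 0.05. The batch label pairs the arrays, and deviations from group means correlated at 0.477, 0.493 and 0.621 within batches. Intervals are 95%. The fit without a block had 4 residual and 4.07 prior degrees of freedom, the fit with it 2 and 12.0. The script was tested on simulated data. Named were all members, LEF1, up to 4 called genes per list by smallest p (2 as values where none passed) and the 5 genes most like MYC. The members, lists and rules were chosen with earlier results of these data known. Lists held 132 genes, of which 121 had a probe set of their own. Alternatives covered scaling, dim probe sets, probe set choice, the variance model, the threshold and leaving out arrays or batches.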

Additional observations from a re-analysis of the deposited data

How the results depend on the processing

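The mean differences are the same with and without batch as a block, while standard errors, intervals and p-values change. Without a block, 10 probe sets were called in all, against 3328 with the replicate block, 23 after quantile normalization, 5 with the brightest probe set per gene, 6 with trend and robust variances, 63 at an adjusted p of 0.1, and 0 to 8 without 1 array or batch. No member was called in any of these without a block, and 2 were called with the replicate block. With the block, members called were 1 with equal medians, 9 under the poly-A scaling (1 higher and 8 lower), 1 with the brightest probe set per gene and 1 to 3 without 1 batch, against 2, both higher. The 8 lower were MYC (-0.27), MAX 210734_x_at (-0.27) and 208403_x_at (-0.23), MXD1 206877_at (-0.21), MLX 217910_x_at (-0.21) and 217909_s_at (-0.28), MLXIP 211789_s_at (-0.23) and MGA 235409_at (-0.23). All probe sets called were 8797 under the poly-A scaling, 971 higher and 7826 lower. They were 1949 with the brightest per gene and 1407 to 3880 without 1 batch, the lowest without batch 2. Listed genes called were 46 under the poly-A scaling, 37 with the smallest p per gene and 10 to 27 without 1 batch, against 24, again lowest without batch 2. Taking the smallest p favours calls at any gene with several probe sets, and its count over all genes is not given here. MYC-induced transcripts called lower were 15 under the poly-A scaling, 5 with the brightest probe sets alone tested, 6 at 0.1 and 2 to 5 without 1 batch, against 3. Those called higher were 1 with the brightest alone tested, 1 at 0.1, 2 with the smallest p and 0 to 1 without 1 batch, against 0. MYC-repressed transcripts called higher were 3 under the poly-A scaling and 3 to 6 without 1 batch, against 6. Of the genes listed as MLXIP and MLX targets, 1 was called lower under the poly-A scaling, and 2 to 3 were called higher without 1 batch, against 4.

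Direction turned at members whose difference was small. Under quantile normalization these were MNT 236749_at (-0.010), MLX 213708_s_at (-0.021) and MGA 212945_s_at (-0.020), and with equal medians MNT 236749_at (-0.010) and MLX 213708_s_at (-0.0084). Under the poly-A scaling, which lowers every difference by 0.12, they were MAX 214108_at (-0.063), MXI1 (-0.0069), MNT 204206_at (-0.052) and 236749_at (-0.107), MLX 213708_s_at (-0.105), 210752_s_at (-0.051), 231401_s_at (-0.083) and 1570347_at (-0.016), MLXIP 202519_at (-0.012) and 225157_at (-0.011), and MGA 212945_s_at (-0.086) and 1564640_at (-0.076). Without 1 batch the differences spanned -0.036 to 0.071 at MNT 236749_at, -0.049 to 0.085 at MLX 213708_s_at, -0.056 to 0.0013 at MLXIP 1554886_a_at, -0.211 to 0.036 at MLXIP 211789_s_at, -0.079 to 0.036 at MGA 230848_s_at (0.00063 without batch 1), -0.021 to 0.091 at MGA 212945_s_at, -0.239 to 0.021 at MGA 235409_at and -0.023 to 0.086 at MGA 1564640_at. The turns under the poly-A scaling follow from that shift, whose own cause was not tested. Nor was the cause of the other changes. LEF1 221558_s_at and 210948_s_at, called without a block (adjusted p 0.0213 and 0.00418, limma), lost that call without batch 1 (-2.63 and -1.82) or batch 2 (-2.83 and -1.80). An alternative pseudocount was not run, as the values were already log2.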

Other observations

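Besides MXD1, the probe sets that name MXD4 together with MIR4800 were higher with LEF1 siRNA, and are counted with neither gene because the annotation does not separate them. MXD4 is another MAX-binding antagonist of MYC. At 212347_x_at the log2 levels were 8.82, 8.87 and 8.68 with LEF1 siRNA, against 8.37, 8.53 and 8.31 with scrambled siRNA. The groups did not overlap, and the difference of 0.39, or 1.31-fold, passed the test in limma with batch as a block (adjusted p = 0.00123, against 0.186 without a block). At 210778_s_at the means were 7.68 ± 0.12 with LEF1 siRNA and 7.46 ± 0.15 with scrambled siRNA, a difference of 0.23 (limma with batch as a block, adjusted p = 0.036). The third, 212346_s_at, differed by 0.16 and was not called (adjusted p = 0.131).

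The difference between LEF1 siRNA and scrambled siRNA was larger at MXD1 226275_at than at MYC by 0.47, 0.46 and 0.47 on the log2 scale in the 3 batches (mean 0.46, SD 0.0031). This contrast within an array does not depend on a factor that scales a whole array, was chosen after the values were seen, and has an exact sign-change p of 0.25, the smallest that 3 batches allow.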
